A study of Mus musculus with 16 samples.

Results

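Insulin receptor signalling and GLUT4 translocation were followed in mouse tibialis anterior, a fast hindlimb muscle, through 10 genes: Insr, Irs1, Irs2, Pik3r1, Akt1, Akt2, Tbc1d1, Tbc1d4, Slc2a4 and Grb10. The genes were chosen by symbol, with earlier results of these data known. All 10 were present among the 14538 genes of the table and among the 11841 that passed the filter on low values. RNA was sequenced from muscle of wild-type male C57BL/6 mice (C57BL/6J in the study's methods) in 3 groups: 5 vehicle-treated mice, 6 mice given recombinant GDF15 and 5 pair-fed mice. All of these mice were housed at about 29 °C and ate a diet rich in fat and fructose, made to induce fatty liver disease, from 8 weeks of age. GDF15 was injected under the skin each morning, at a dose that the labels do not tie to single samples, and the food of the pair-fed mice was limited daily to match the intake measured under GDF15. The pair-fed mice carry the numbers 2 to 6, and each library is 1 mouse.

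In muscle, insulin binds its receptor tyrosine kinase, which phosphorylates insulin receptor substrates. These recruit phosphoinositide 3-kinase, whose lipid product activates AKT. AKT phosphorylates the RAB GTPase-activating proteins TBC1D4 and TBC1D1, which lets vesicles holding the glucose transporter GLUT4 move to the surface. This is the main route by which muscle takes up glucose after a meal, and it is regulated largely by phosphorylation and protein movement, which mRNA levels do not show.

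Depth, read from the size of the steps between low values, was approximately 9500527 to 15021335 reads per library. Values are given as normalized counts, that is, read counts divided by the library's size factor. Markers of muscle fibres were high in every library, as the label requires, with a summed level of 7 genes of 1947000 to 2200000 in vehicle, 1967000 to 2210000 in GDF15 and 2118000 to 2419000 in pair-fed muscle. Of these genes 3 were higher in every pair-fed than in every vehicle mouse: Ckm (303900 to 351600 against 287400 to 300000), Actn3 (143000 to 179600 against 118000 to 133000) and Ttn (11140 to 16180 against 10030 to 11050). Over all tested genes, 5.44% had no overlap between pair-fed and vehicle mice. Acta1, Myh4 and Tnnt3 overlapped between these groups, and Myh1 was lower in 4 of the 5 pair-fed mice than in every vehicle mouse. Their part in that comparison was not tested. Marker lists for other cells or fibre types varied between mice. The summed level of 5 slow-fibre genes was 209.7 to 456.9 in vehicle muscle, but reached 1837 in GDF15 mouse 1, 1694 in pair-fed mouse 3 and 1099 in pair-fed mouse 6. The summed level of 5 endothelial genes was 4805 to 5669 in vehicle, 3953 to 4945 in GDF15 and 4122 to 4986 in pair-fed muscle, so it differed most between vehicle and the other groups. Of these genes only Kdr had vehicle values apart from the rest: 1102 to 1275, against 652.6 to 928.1 in GDF15 and 795.9 to 1065 in pair-fed mice. Pecam1, Cdh5, Tie1 and Cldn5 overlapped between the groups. The part of the endothelial genes in the comparisons with vehicle was not tested. The summed level of 6 adipocyte genes was 2242 to 2466 in vehicle, 1961 to 3722 in GDF15 and 1989 to 2770 in pair-fed muscle; most of this sum was Fabp4 (1703 to 2552), which endothelial cells also express. Adipoq, more specific to adipocytes, was 10.8 to 112.5 in vehicle, 4.88 to 238.8 in GDF15 and 39.92 to 143.1 in pair-fed muscle. Both the sum and Adipoq were highest in GDF15 mouse 2, which also had the highest fibroblast sum (4 genes, 2243 to 5317 over all mice). Macrophage genes (4) summed to 65.93 to 233.3 and satellite cell genes (2) to 44.57 to 76.01. Red blood cell genes (2 of 3 listed were in the table) ran from 72.71 to 3430, with 1 of them at 0 in a pair-fed library. In whole muscle, fewer cells of a type and less RNA per cell cannot be told apart.

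Pik3r1, which encodes the main regulatory subunit of phosphoinositide 3-kinase, was the only one of the 10 genes that passed the test, and its level was lower in pair-fed muscle than in either other group. Of all tested genes, 2.17% were called between GDF15 and pair-fed muscle and 6.37% between pair-fed and vehicle muscle. Pik3r1 was 341.3, 327.0, 384.3, 343.7 and 289.6 normalized counts in the 5 vehicle mice. In the 6 GDF15 mice it was 350.9, 386.2, 333.1, 355.4, 329.9 and 301.1, and in the 5 pair-fed mice 225.7, 310.5, 260.6, 232.0 and 247.9. In pair-fed muscle 4 of the 5 values lay below every value of the other groups, and pair-fed mouse 3 was the exception that made the groups overlap. Group means were 337.2 ± 34.08 (SD, n = 5), 342.8 ± 28.67 (SD, n = 6) and 255.3 ± 33.72 (SD, n = 5).

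Pik3r1 was higher in GDF15 than in pair-fed muscle by 0.43 on the log2 scale (SE 0.09, 95% interval 0.24 to 0.61, limma adjusted p = 0.0322), and all 6 GDF15 mice lay above the pair-fed median. It was lower in pair-fed than in vehicle muscle, with a log2 fold change of -0.40 (SE 0.09, interval -0.60 to -0.21, limma adjusted p = 0.0234), and all 5 pair-fed mice lay below the vehicle median. Exact two-sided permutation tests over mice gave p = 0.00866 and p = 0.0159 for these comparisons. Between GDF15 and vehicle muscle the difference was 0.03 with an interval of -0.16 to 0.21 (limma adjusted p = 0.954). GDF15 mouse 2, the richest in adipocyte transcript, had the highest Pik3r1 of its group, and without it the difference from pair-fed muscle was 0.39 (limma adjusted p = 0.0698). That difference came nearest the threshold without pair-fed mouse 5 (0.40, limma adjusted p = 0.0996). The limma adjusted p was 0.0894 without pair-fed mouse 2, 0.0901 without pair-fed mouse 6 and 0.0904 with a depth term. The first pair of comparisons share the pair-fed libraries, so they are not independent. Neither difference reached 0.6 on the log2 scale, the minimum fold that the study used for this muscle. Without the 3 libraries richest in slow-fibre transcript the differences were 0.51 (limma adjusted p = 0.027) and -0.49 (limma adjusted p = 0.0193). This setting was chosen after seeing the data, and pair-fed mouse 3, the exception above, is among the 3 libraries. Leaving out only pair-fed mouse 3 gave 0.50 (limma adjusted p = 0.00537) and -0.48 (limma adjusted p = 0.00598). The part of slow-fibre transcript in these values was therefore not tested.

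**Figure D1:**
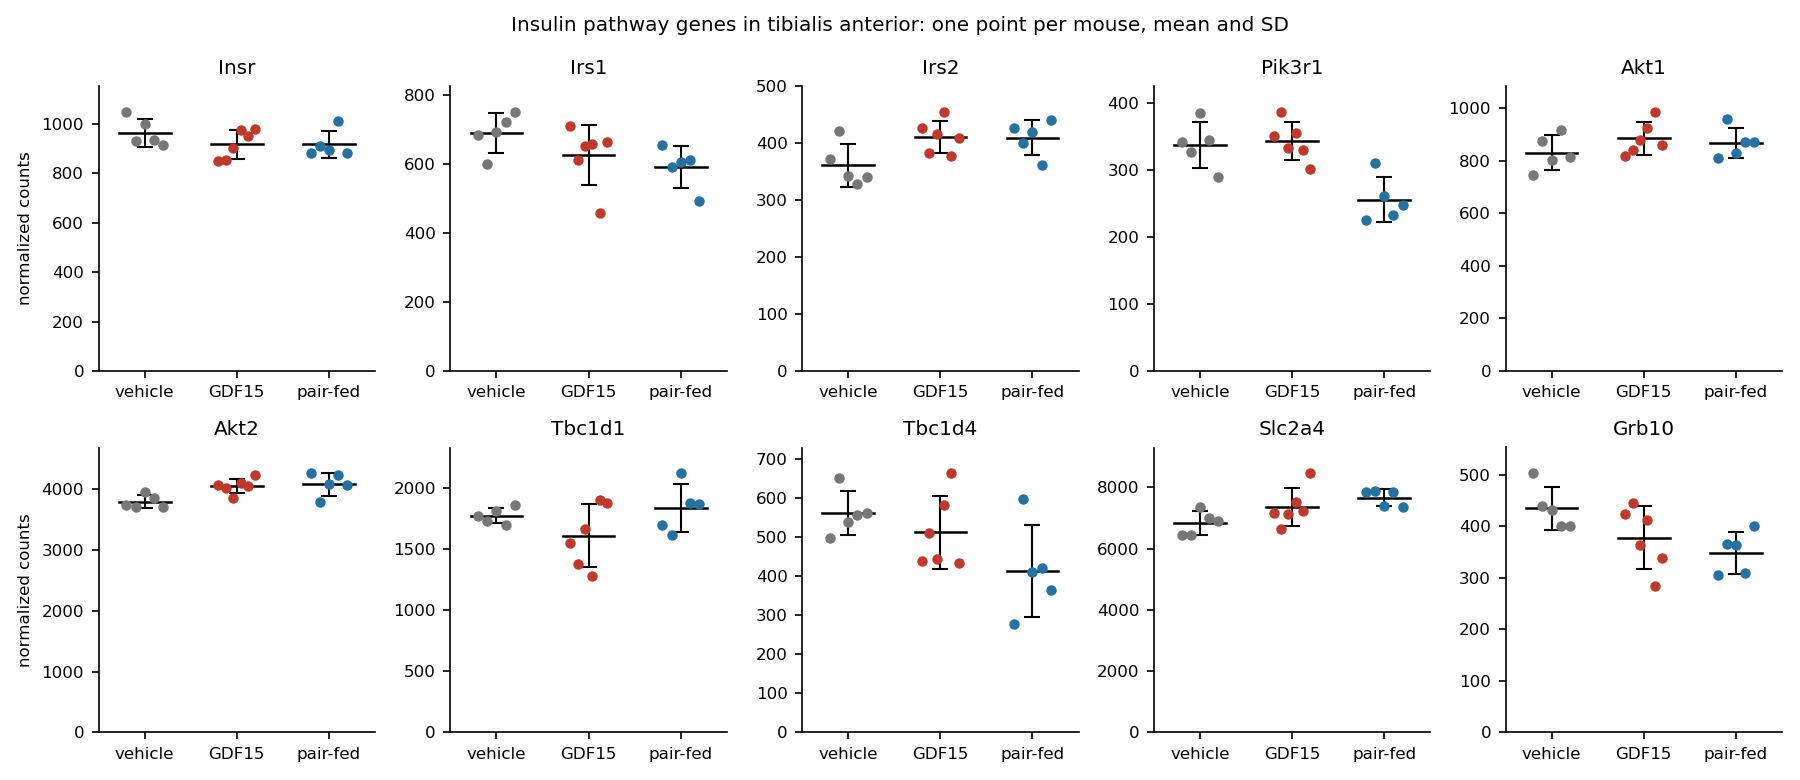
Normalized counts of the 10 insulin pathway genes, 1 point per mouse, with the group mean and SD as bars; every vertical axis starts at 0. Pik3r1 had means of 337.2 in vehicle, 342.8 in GDF15 and 255.3 in pair-fed muscle, and 4 of the 5 pair-fed points lie below all others.

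Pik3r1 (ENSMUSG00000041417) lies on the minus strand of chr13:101680563-101768217 in GRCm38 and has 7 annotated transcripts, which start at different places. The long transcript encodes the full-length subunit, and transcripts from an inner start encode shorter forms. The table gives 1 value for the whole gene, so the level of each form was not measured here. The bases upstream of the outer and of an inner start are shown because it is this gene that differed between groups and its forms begin at separate promoters. The sequences are RefSeq's, from GRCm38.p6, each the 250 bases before the start, written 5′ to 3′ on the gene's strand; neither window holds an annotated exon.
Pik3r1 outer start, chr13:101768218-101768467, minus strand: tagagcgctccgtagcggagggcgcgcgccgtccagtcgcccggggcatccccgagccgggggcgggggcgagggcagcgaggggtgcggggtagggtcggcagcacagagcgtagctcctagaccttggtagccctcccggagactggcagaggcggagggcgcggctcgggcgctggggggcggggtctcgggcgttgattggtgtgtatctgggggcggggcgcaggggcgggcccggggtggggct
Pik3r1 inner start, chr13:101692631-101692880, minus strand: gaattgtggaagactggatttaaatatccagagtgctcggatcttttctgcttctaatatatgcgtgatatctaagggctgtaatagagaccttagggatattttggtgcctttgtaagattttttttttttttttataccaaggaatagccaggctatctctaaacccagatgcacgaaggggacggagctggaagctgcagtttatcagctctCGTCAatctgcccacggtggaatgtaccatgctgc
The outer window is 76.4% G and C, and the inner window 42.4%. Capitals mark a match to TGACG on either strand, the core of the cAMP response element, the only match in these windows among the motifs searched. This core occurs in 17.8% of the 32851 promoter windows of this length. The forkhead core GTAAACA, found in 3.17% of windows, and the full cAMP response element TGACGTCA, which contains that core and is found in 1.55%, were in neither Pik3r1 window. A match of letters does not show that a factor binds.

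Of the 10 genes, 1 was called at an adjusted p under 0.1 between GDF15 and pair-fed muscle, where 2.17% of all tested genes were called, 0.929% in the higher direction. Between pair-fed and vehicle muscle 1 of 10 was called, where 6.37% of all genes were, 3.17% in the lower direction. None was called between GDF15 and vehicle muscle by limma, where 0.769% of all genes were, 0.431% higher and 0.338% lower with GDF15; there 2 of the 10 had an unadjusted p under 0.05, beside 11% of all genes. By exact permutation 2 of the 10 had a p under 0.05 for GDF15 against vehicle, 1 for GDF15 against pair-fed and 6 for the comparison of pair-fed with vehicle muscle, beside 10.4%, 11.2% and 18.2% of all genes. No member passed the adjusted p and the fold minimum together in any comparison, against 0.279% of all genes for GDF15 against pair-fed, 0.304% for GDF15 against vehicle and 0.819% for the comparison of pair-fed with vehicle muscle. No member had groups without overlap, against 1.77%, 1.65% and 5.44% of all genes in that order. The members' median log2 fold changes were 0.02, -0.02 and -0.01 in the same order, beside a median of 0.00 over all genes in each. Between GDF15 and pair-fed muscle 3 of the 10 had an unadjusted p under 0.05, beside 13.2% of all genes. Between pair-fed and vehicle muscle 7 of the 10 had an unadjusted p under 0.05, beside 18.9% of all genes, although only Pik3r1 was called after adjustment.

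**Figure D2:**
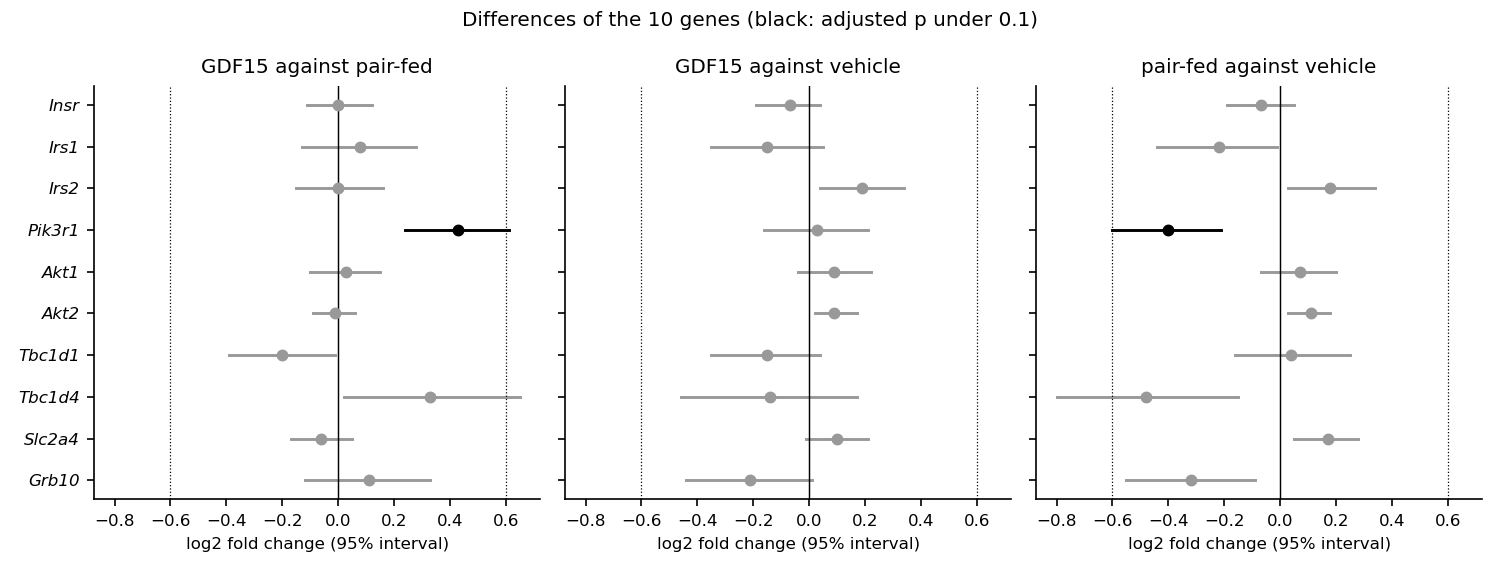
Log2 fold change of each of the 10 genes in the 3 comparisons, with its 95% interval; black marks an adjusted p under 0.1 and dotted lines the fold minimum of 0.6. Pik3r1 is black at 0.43 for GDF15 against pair-fed and at -0.40 for pair-fed against vehicle, and no other gene is black.

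Insr, the insulin receptor itself (chr8:3122061-3279617, minus strand), had close means in all groups. It was 965.5 ± 56.83 normalized counts in vehicle (SD, n = 5), 918.8 ± 58.56 in GDF15 (SD, n = 6) and 917.5 ± 55.29 in pair-fed muscle (SD, n = 5). The 95% intervals of its differences ran from -0.11 to 0.12 for GDF15 against pair-fed, from -0.19 to 0.04 for GDF15 against vehicle and from -0.19 to 0.05 for pair-fed against vehicle. These intervals hold no difference larger than 0.19 on the log2 scale. Grb10, an adaptor that binds the activated receptor and dampens its signal, did not pass the main test in any comparison. For pair-fed against vehicle it was called in 3 of 29 alternative analyses, with limma adjusted p values of 0.0684 to 0.26 over all of them. Its values were 502.9, 439.5, 431.6, 399.9 and 400.3 in vehicle, 424.8, 446.4, 363.6, 411.5, 283.5 and 339.3 in GDF15, and 306.5, 365.2, 363.8, 308.7 and 400.5 in pair-fed muscle. All 5 pair-fed mice lay below the vehicle median, with a log2 fold change of -0.32 (SE 0.11, limma adjusted p = 0.126, exact permutation p = 0.0238). For GDF15 against vehicle it was -0.21 (SE 0.11, limma adjusted p = 0.481), and for GDF15 against pair-fed 0.11 (SE 0.11). Without GDF15 mouse 5, the lowest at 283.5, these values were -0.13 and 0.19, and without GDF15 mouse 2, the highest of its group, -0.26 and 0.06.

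The receptor substrates Irs1 and Irs2, docking proteins that recruit phosphoinositide 3-kinase, had fold changes of opposite sign against vehicle, neither past the adjusted threshold. Irs1 was 598.9 to 750.1 normalized counts in vehicle, 457.6 to 708.2 in GDF15 and 491.5 to 654.7 in pair-fed muscle, so all ranges overlap. Its log2 fold change was -0.15 for GDF15 (limma adjusted p = 0.612) and -0.22 for pair-fed (limma adjusted p = 0.238, exact permutation p = 0.0317) against vehicle, with all 5 pair-fed mice below the vehicle median. Without GDF15 mouse 5, the lowest at 457.6, the GDF15 value was -0.06 (limma adjusted p = 0.803). Irs2, which in many tissues is induced by fasting, was 373.0, 421.3, 342.9, 327.5 and 341.4 in vehicle mice. It was 426.3, 383.6, 415.6, 455.0, 377.6 and 408.3 in GDF15 mice and 427.2, 400.2, 419.1, 361.7 and 440.7 in pair-fed mice. Vehicle mice 3, 4 and 5 lay below every mouse of the other groups, whereas vehicle mice 1 and 2 lay among them. Against vehicle the log2 fold change of Irs2 was 0.19 for GDF15 (SE 0.07, limma adjusted p = 0.323, exact permutation p = 0.039) and 0.18 for pair-fed muscle (SE 0.08, limma adjusted p = 0.193, exact permutation p = 0.0635). Without vehicle mouse 2 the pair-fed value was 0.24 (limma adjusted p = 0.0956), the 1 of 29 alternative analyses that called Irs2. Between GDF15 and pair-fed muscle its difference was 0.00, with an interval of -0.15 to 0.16. The ratio of Irs1 to Irs2 within each mouse averaged 1.93 ± 0.323 in vehicle (SD, n = 5), 1.52 ± 0.167 in GDF15 (SD, n = 6) and 1.45 ± 0.21 in pair-fed muscle (SD, n = 5). Vehicle mouse 2, at 1.42, lay inside the range of the other groups, which was 1.12 to 1.69. Irs1 and Irs2 each overlap an exon of a gene on the opposite strand, Gm9747 and 9530052E02Rik, and the strand setting of the counting is not given in the sources used here.

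Akt2, the AKT kinase isoform most tied to glucose uptake, exceeded Akt1, the isoform most tied to growth, in every library. Akt2 was 3740, 3700, 3948, 3854 and 3697 normalized counts in vehicle mice. It was 4061, 4007, 3851, 4090, 4039 and 4223 in GDF15 mice and 4254, 3780, 4075, 4222 and 4058 in pair-fed mice. All GDF15 and pair-fed mice lay above the vehicle median, but the ranges overlap. The log2 fold change against vehicle was 0.09 for GDF15 (SE 0.04, limma adjusted p = 0.323, exact permutation p = 0.013) and 0.11 for pair-fed muscle (SE 0.04, limma adjusted p = 0.134, exact permutation p = 0.0238). For pair-fed against vehicle, Akt2 was called in 2 of 29 alternative analyses. These were without pair-fed mouse 3 (0.13, limma adjusted p = 0.0435) and without the 3 libraries richest in slow-fibre transcript, mouse 3 among them (0.14, limma adjusted p = 0.0687). Akt1 was 746.6 to 985.1 across all 16 mice, and its log2 fold changes were 0.03 to 0.09. The ratio of Akt2 to Akt1 counts averaged 4.58 ± 0.375 in vehicle (SD, n = 5), 4.59 ± 0.345 in GDF15 (SD, n = 6) and 4.72 ± 0.484 in pair-fed muscle (SD, n = 5). Per kilobase of the longest coding transcript the ratio was 2.71, 2.72 and 2.80.

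Tbc1d4 (also called AS160) and Tbc1d1, the paralogous AKT substrates that hold GLUT4 vesicles back until they are phosphorylated, did not pass the test in any comparison. Tbc1d4 was 496.2, 650.3, 536.9, 556.2 and 561.0 normalized counts in vehicle mice, and 439.3, 509.8, 443.2, 581.4, 662.1 and 432.2 in GDF15 mice. In pair-fed mice it was 276.9, 597.2, 410.3, 419.6 and 363.4. Of the pair-fed mice 4 lay below all GDF15 and vehicle mice, and pair-fed mouse 3 lay among the highest of all. The pair-fed group had a coefficient of variation of 28.4%, against 10.1% in vehicle and 18.3% in GDF15 muscle. The log2 fold change was -0.48 for pair-fed against vehicle (SE 0.16, interval -0.80 to -0.15, limma adjusted p = 0.105, exact permutation p = 0.0397) and 0.33 for GDF15 against pair-fed (SE 0.15, interval 0.02 to 0.65, limma adjusted p = 0.345). Leaving out pair-fed mouse 3 gave -0.62 (limma adjusted p = 0.016) and 0.47 (limma adjusted p = 0.0776), both past the threshold. Leaving out pair-fed mouse 2, the lowest in Tbc1d4, gave -0.34 (limma adjusted p = 0.24) and 0.20 (limma adjusted p = 0.633). Without the 3 libraries richest in slow-fibre transcript, mouse 3 among them, the values were -0.62 (limma adjusted p = 0.0416) and 0.52 (limma adjusted p = 0.117). Over all 29 alternative analyses Tbc1d4 was called in 7 for pair-fed against vehicle and in 1 for GDF15 against pair-fed.

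Fibre markers also varied among the pair-fed mice. In the order of mice 2 to 6, Myh1, the fast type IIx myosin, was 77810, 139400, 110900, 99490 and 95030 normalized counts. Tnnt1, slow troponin T, was 77.89, 270.3, 80.94, 77.84 and 205.5. Mouse 3, with the highest Tbc1d4 of the group, was highest in both markers, and mouse 2, with the lowest Tbc1d4, was lowest in Myh1. Tnnt1 did not otherwise follow Tbc1d4: mouse 6, the second in Tnnt1, was the second lowest in Tbc1d4. Myh1 was 131300 to 188400 in vehicle mice and 113800 to 166400 in GDF15 mice. Not all fast-fibre genes followed Myh1: Myh4, the fast type IIb myosin, was 1022000, 801500, 944200, 993500 and 909500 in the pair-fed mice, lowest in mouse 3 and highest in mouse 2, the reverse of Myh1. The part of fibre type in the Tbc1d4 result was not tested. Over all 16 libraries the genes most alike in pattern to Tbc1d4 were Smtnl1 (Pearson r = 0.94), Slc41a1 (0.93) and Ldhb (0.92), a search chosen after the values were seen; the points share group and fibre makeup, and no p is given.

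**Figure D3:**
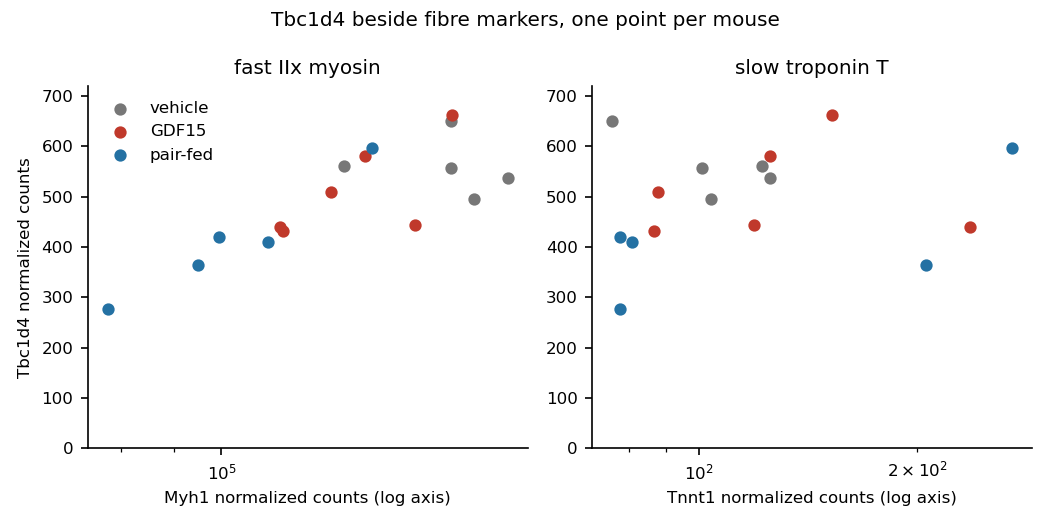
Tbc1d4 against Myh1 and Tnnt1, 1 point per mouse, as normalized counts with log horizontal axes. Pair-fed mouse 3, at 597.2 for Tbc1d4, lies among the vehicle and GDF15 points in the Myh1 panel and at the high end of Tnnt1.

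Tbc1d1 did not follow Tbc1d4. It was 1698 to 1855 normalized counts in vehicle mice, 1275 to 1901 in GDF15 mice and 1614 to 2116 in pair-fed mice. GDF15 mice 1, 2 and 4, at 1551, 1379 and 1275, lay below every mouse of the other groups. Its log2 fold change was -0.20 for GDF15 against pair-fed (SE 0.09, limma adjusted p = 0.350), -0.15 for GDF15 against vehicle and 0.04 for pair-fed against vehicle. Without GDF15 mouse 4 the first value was -0.14 and the second -0.09, and the third ran from -0.01 without pair-fed mouse 4 to 0.09 without pair-fed mouse 3. The ratio of Tbc1d1 to Tbc1d4 within each mouse was 2.65 to 3.56 in vehicle, 2.19 to 4.34 in GDF15 and 2.70 to 6.12 in pair-fed muscle. In pair-fed mice 2, 4, 5 and 6 it was 6.12, 5.16, 4.48 and 5.13, above every mouse of the other groups, while mouse 3 was at 2.70.

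**Figure D4:**
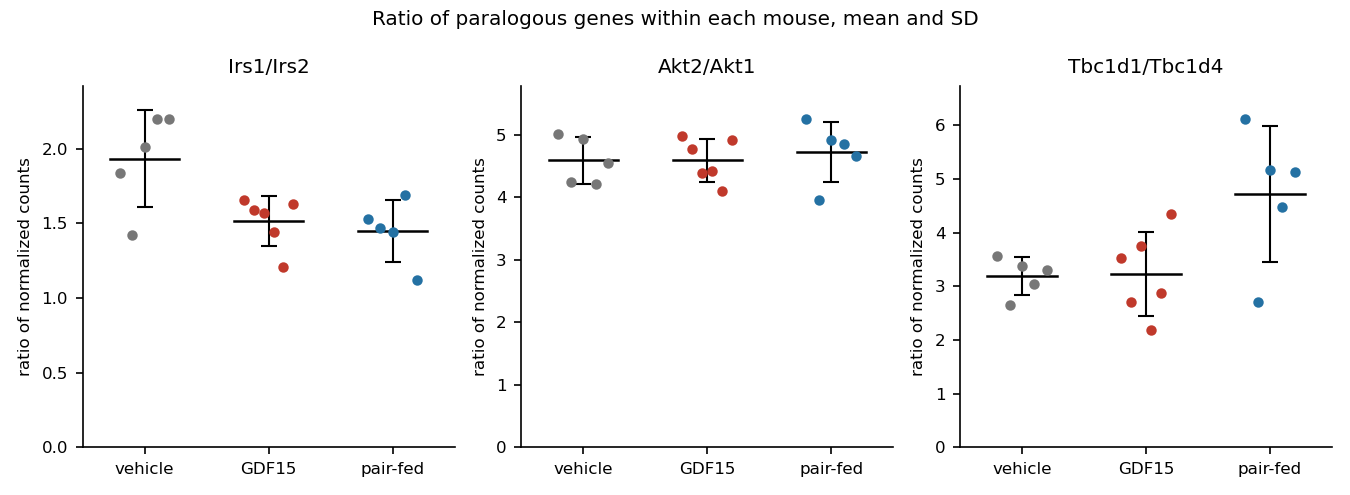
Ratio of normalized counts of paralogous genes within each mouse, with the group mean and SD; axes start at 0. Irs1/Irs2 averaged 1.93, 1.52 and 1.45 in vehicle, GDF15 and pair-fed muscle, Akt2/Akt1 4.58, 4.59 and 4.72, and Tbc1d1/Tbc1d4 3.19, 3.23 and 4.72.

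Slc2a4, which encodes GLUT4, the end point of the pathway (chr11:69942539-69948188, minus strand), was 6441, 6446, 7363, 7001 and 6884 normalized counts in vehicle mice. It was 7143, 6632, 7129, 7512, 7226 and 8450 in GDF15 mice and 7851, 7885, 7373, 7850 and 7347 in pair-fed mice. All pair-fed mice lay above the vehicle median, and only vehicle mouse 3 reached into their range. The log2 fold change was 0.17 for pair-fed against vehicle (SE 0.05, interval 0.05 to 0.28, limma adjusted p = 0.102, exact permutation p = 0.0159), which lies just outside the threshold. It passed in 9 of 29 alternative analyses, with adjusted p values from 0.0403 to 0.238 over all of them. For GDF15 against vehicle it was 0.10 (interval -0.01 to 0.21, limma adjusted p = 0.480), and for GDF15 against pair-fed -0.06 (interval -0.17 to 0.05, limma adjusted p = 0.643).

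Per kilobase of each gene's longest coding transcript, Slc2a4 was highest in every group, with 2705 ± 155.3 normalized counts per kilobase in vehicle muscle (SD, n = 5). Akt2 followed at 834 ± 24.1, then Akt1 at 309 ± 24.5 and Tbc1d1 at 274 ± 9.69, whose ranges overlap. Insr was at 103 ± 6.07, Tbc1d4 at 86.4 ± 8.72, Grb10 at 85.9 ± 8.31, Irs1 at 75.3 ± 6.19, Irs2 at 57.1 ± 5.93 and Pik3r1 at 47.4 ± 4.79. From Insr down, each gene overlapped the next in the order. In pair-fed muscle the order changed only among Grb10, Irs2, Irs1 and Tbc1d4, which lay between 63.8 and 68.9 and overlapped. The transcript used matters, since with the shortest coding transcript Pik3r1 stood at 115.4 in vehicle muscle and Akt2 at 2721.

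By pattern over the 16 libraries on the log2 scale, the genes most like Slc2a4 were Rfk (Pearson r = 0.86), Med25 (0.86) and Vps41 (0.85). Those most like Insr were Hectd4 (0.83), H2az2 (0.79) and Tmem129 (0.77). For Irs1 they were 9930021J03Rik (0.83), Vapa (0.80) and Ehbp1l1 (0.79), and for Irs2 Napa (0.75), Fstl3 (0.75) and Rerg (0.74). For Pik3r1, a search chosen after its values were seen, they were Ostc (0.89), Aqp4 (0.88) and Trim35 (0.87). These are the highest of 11841 genes over libraries that share groups, and are given with no p.

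The other genes of the pathway were taken from 5 lists with 60 genes, of which 58 passed the filter. These lists too were chosen with earlier results of these data known. Between pair-fed and vehicle muscle 8 of 58 were called (13.8%, beside 6.37% of all genes), with 6 higher and 2 lower in pair-fed muscle, beside 3.2% and 3.17% of all genes. Between GDF15 and pair-fed muscle 2 of 58 were called (3.45%, beside 2.17% of all genes), 1 in each direction, beside 0.929% of all genes higher and 1.24% lower. None of the 58 was called by limma between GDF15 and vehicle muscle, where 0.769% of all genes were; 9 of the 58 had an unadjusted p under 0.05, beside 11% of all genes. The median log2 fold change of the 58 was 0.02, -0.02 and 0.03 in these comparisons, and 0.00 over all genes.

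Among receptor-proximal genes, 2 of 12 tested were called for pair-fed against vehicle, both higher in pair-fed muscle. This is 16.7%, beside 6.37% of all genes called and 3.2% called higher. For GDF15 against pair-fed 1 of 12 was called, lower with GDF15 (8.33%, beside 2.17% of all genes). Igf1r, the IGF1 receptor, which signals through the same substrates, was 224.6, 249.2, 241.6, 275.1 and 275.2 normalized counts in pair-fed mice. It was 196.9, 195.8, 205.8, 232.9 and 163.8 in vehicle mice and 178.4, 216.8, 176.6, 190.4, 196.8 and 184.5 in GDF15 mice. Every pair-fed value of Igf1r lay above every GDF15 value, and only vehicle mouse 4 reached the pair-fed range. It was the reverse of Pik3r1 in sign, at 0.35 for pair-fed against vehicle (SE 0.09, limma adjusted p = 0.043) and -0.41 for GDF15 against pair-fed (SE 0.09, limma adjusted p = 0.0368). Both Igf1r calls were lost without the 3 libraries richest in slow-fibre transcript (0.31, limma adjusted p = 0.146; -0.35, limma adjusted p = 0.143), and also without pair-fed mouse 5 (0.32, limma adjusted p = 0.113; -0.38, limma adjusted p = 0.12) or without pair-fed mouse 6 (0.32, limma adjusted p = 0.111; -0.38, limma adjusted p = 0.111). The first was lost without vehicle mouse 5 too (0.28, limma adjusted p = 0.109). Gab1, a docking protein of receptor tyrosine kinases, was 401.3, 365.7, 417.7, 431.8 and 426.8 in pair-fed mice and 309.1 to 346.9 in vehicle mice, without overlap. Its log2 fold change was 0.30 (SE 0.06, limma adjusted p = 0.0159). GDF15 mice, at 332.0 to 400.1, overlapped both groups.

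Of the 7 genes of phosphoinositide 3-kinase and its lipid phosphatases, 1 was called for pair-fed against vehicle, and none in the other comparisons. This is 14.3%, beside 6.37% of all genes called and 3.17% called lower. Inppl1, which encodes SHIP2, a phosphatase that removes the kinase's lipid product, was 2613, 3081, 2961, 2805 and 2707 normalized counts in pair-fed mice. In vehicle mice it was 3120 to 3294, above all pair-fed mice. The log2 fold change was -0.19 (SE 0.05, limma adjusted p = 0.0357), and for GDF15 against pair-fed it was 0.14 (limma adjusted p = 0.167). Inpp5k, another phosphatase of this kind, was among the 3 genes with the smallest p for GDF15 against vehicle, at 0.25 (SE 0.08, limma adjusted p = 0.23). Gab1 and Inppl1 were called for pair-fed against vehicle in all 29 alternative analyses.

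Among the 15 genes of AKT activation, its brakes and its direct targets, Mlst8 and Gsk3b were called for pair-fed against vehicle (13.3%, beside 6.37% of all genes). Mlst8 was also called for GDF15 against pair-fed (6.67% of the list, beside 2.17% of all genes). Mlst8, a subunit shared by both mTOR complexes, one of which phosphorylates AKT, was 208.7, 211.7, 198.5, 162.4 and 219.0 normalized counts in pair-fed mice. It was 225.4 to 289.2 in GDF15 mice and 222.9 to 249.7 in vehicle mice, above all pair-fed mice. Its log2 fold change was 0.37 for GDF15 against pair-fed (SE 0.08, limma adjusted p = 0.0398) and -0.26 for pair-fed against vehicle (SE 0.08, limma adjusted p = 0.0951), a call that held in 11 of 29 alternatives. The first call was lost without pair-fed mouse 5 (0.29, limma adjusted p = 0.101). The second was lost on leaving out any vehicle mouse, GDF15 mouse 1, 2, 3 or 6, or pair-fed mouse 2, 4, 5 or 6, with values of -0.19 to -0.29. Gsk3b, a kinase that AKT inhibits to allow glycogen synthesis, was 684.2 to 891.2 in pair-fed and 605.4 to 753.2 in vehicle mice, with a log2 fold change of 0.26 (SE 0.07, limma adjusted p = 0.0564). This call was lost without vehicle mouse 2, 3 or 5 or pair-fed mouse 5 or 6, with values from 0.21 (pair-fed mouse 6, limma adjusted p = 0.143) to 0.25 (vehicle mouse 3, limma adjusted p = 0.11).

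Among the 20 tested genes of GLUT4 vesicle traffic, Stxbp3 and Aspscr1 were called, both higher in pair-fed than in vehicle muscle. Stxbp3, which encodes the SNARE regulator Munc18c, was 496.4 to 574.1 normalized counts in pair-fed and 377.0 to 470.7 in vehicle mice, without overlap, with a log2 fold change of 0.29 (SE 0.08, limma adjusted p = 0.0455). It also had the smallest p of the 58 for GDF15 against vehicle, at 0.27 (SE 0.07, limma adjusted p = 0.153), with GDF15 mice at 441.9 to 575.8. Aspscr1, which encodes TUG, a tether that keeps GLUT4 vesicles inside the cell, was 320.9 to 415.3 in pair-fed and 272.1 to 314.4 in vehicle mice, with a log2 fold change of 0.26 (SE 0.08, limma adjusted p = 0.0791). The Stxbp3 call was lost without vehicle mouse 1 (0.24, limma adjusted p = 0.11) or pair-fed mouse 2 (0.27, limma adjusted p = 0.112), and the Aspscr1 call without any vehicle mouse or pair-fed mouse 5 or 6, with values of 0.20 to 0.28. Rala, a GTPase of vesicle docking, was 433.7 to 459.8 in GDF15 and 430.0 to 615.3 in vehicle mice, at -0.28 (SE 0.09, limma adjusted p = 0.203). Of the 4 other glucose transporters, only Slc2a1 was called, for pair-fed against vehicle, where 6.37% of all genes were. Slc2a1, which encodes GLUT1, the transporter that does not depend on insulin, was 109.6, 150.5, 104.5, 140.7 and 131.7 in pair-fed and 74.80 to 112.4 in vehicle mice. Its log2 fold change was 0.48 (SE 0.13, limma adjusted p = 0.0448), and without the 3 libraries richest in slow-fibre transcript 0.38 (limma adjusted p = 0.192). It was also not called without vehicle mouse 3 (0.42, limma adjusted p = 0.11), pair-fed mouse 5 (0.44, limma adjusted p = 0.116) or pair-fed mouse 6 (0.47, limma adjusted p = 0.104). Aspscr1 without the 3 libraries richest in slow-fibre transcript was at 0.22 (limma adjusted p = 0.156).

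**Figure D5:**
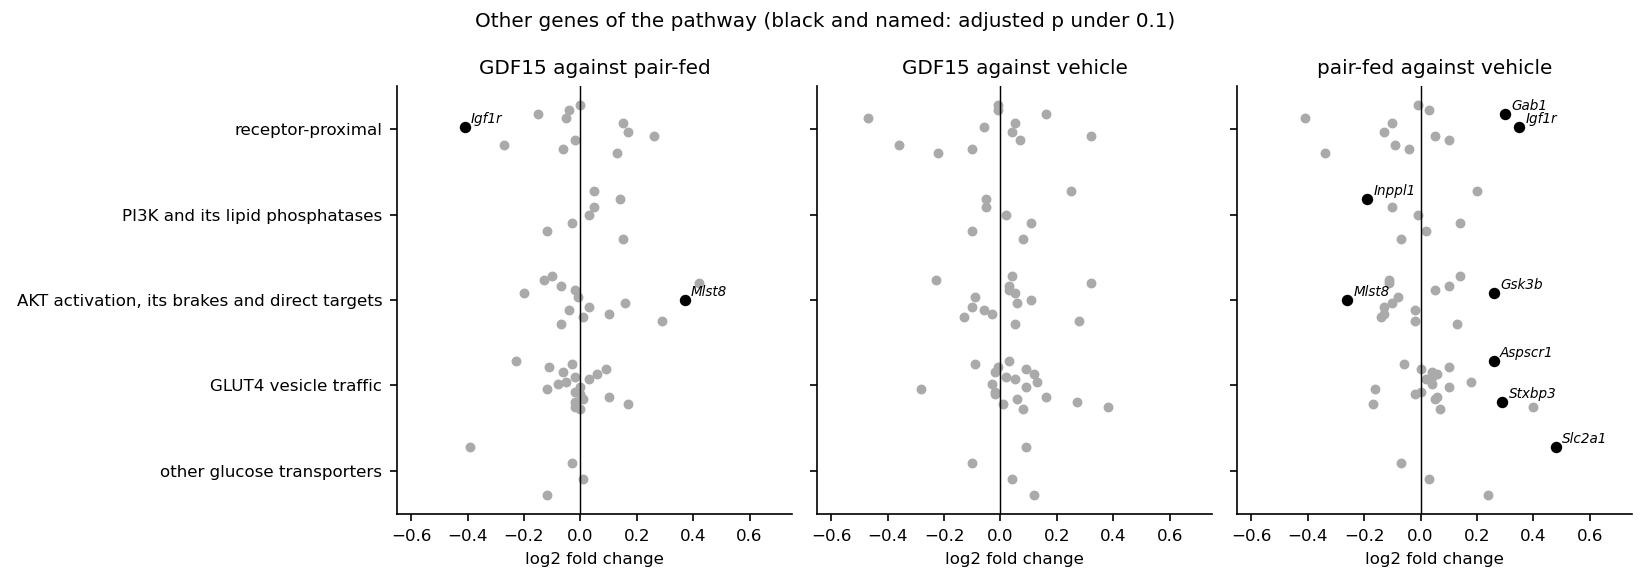
Log2 fold change of the 58 tested genes of the wider pathway lists in the 3 comparisons, 1 point per gene; black and named points have an adjusted p under 0.1. There are 2 named points for GDF15 against pair-fed, none for GDF15 against vehicle and 8 for pair-fed against vehicle, of which 6 are higher and 2 lower.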

How the data were processed

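Total RNA from tibialis anterior of 16 mice was made into libraries with a directional kit and sequenced as paired reads. Trim Galore served the authors for trimming, Salmon for quantification and DESeq2 for normalization of the gene counts; the submitters' processing notes name mm10, and versions are not given in the sources used here. The values the authors deposited are log2 values in the form of DESeq2's variance-stabilising transformation, from 7.32 to 19.96, with 8459 values at the lowest, which stands for a count of 0. They were transformed back to normalized counts (largest difference on returning to the deposited scale 3.6e-15). Low values were whole multiples of a common step, within 0.1 reads, in 87.3% to 97.4% of cases in genes with 1 transcript, but in 20.2% to 26.2% in genes with more than 4, since Salmon's estimates need not be whole. Depth is therefore approximate and no count model was used.

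The filter kept genes whose mean reached 10 normalized counts. limma 3.58.1 in R 4.3.3 was run on log2(normalized count + 1), with an intensity trend, all 3 groups in 1 fit and Benjamini-Hochberg adjustment over all 11841 genes; fold changes are on that scale and so slightly understate changes of low genes. A call is an adjusted p under 0.1, with a fold minimum of 0.6 (log2) as a stricter rule, both as in the study. Exact two-sided permutation tests over mice used scipy 1.17.1; their smallest possible p is 0.00433 for both GDF15 comparisons and 0.00794 for pair-fed against vehicle. Intervals are 95% intervals of the fit. Named genes are all 10 members, the genes of the 5 wider lists that were called in any comparison or had the 3 smallest p where none was, and the 3 genes most correlated with Insr, Irs1, Irs2 and Slc2a4. The members and lists were chosen with earlier results of these data known, so no p is given over a list. Gene positions are from GENCODE for GRCm38. On simulated data for GDF15 against pair-fed with 11841 genes, 89 of 100 genes changed by 1 (log2) and 25 of 100 changed by 0.3 were called, beside 8 unchanged genes. Alternatives changed the pseudocount, filter, scale, trend, weights, groups fitted, normalization, depth term, replicate block and adjusted p threshold, left out each library, and, chosen after seeing the data, left out 3 libraries together. The markers of 1 further cell type are not reported here.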

Additional observations from a re-analysis of the deposited data

Results flagged for a closer look

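In 1 of 60 groups of values tested, 1 mouse stood far from the rest of its group: Insr in pair-fed mouse 5 was 1014 normalized counts, with the other pair-fed mice at 883.3 to 910.5. The gap to the nearest mouse was 0.792 of the group's range. The cutoff of this rule is set so that about 1 in 20 groups of normally spread values would be flagged, a rate not measured on these data. Insr passed no test in any comparison.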

How the results depend on the processing

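Pik3r1 was called for GDF15 against pair-fed and for pair-fed against vehicle in all 29 alternatives, with adjusted p values of 0.00537 to 0.0996 and 0.00598 to 0.0701. The number of members called for pair-fed against vehicle was 1, but 3 with a minimum mean of 50, library weights, the groups compared fitted alone, quantile normalization or scaling to the 75th percentile, and 4 without the 3 libraries richest in slow-fibre transcript, where 1 also passed the fold minimum (Tbc1d4). Over all genes 754 were called in the main fit and 823 with quantile normalization. For the other settings just named the counts over all genes are not given here, so these member counts have no background. Leaving out single mice gave 1 to 2 members for GDF15 against pair-fed, the higher without pair-fed mouse 3, and 1 to 3 for pair-fed against vehicle, the highest without GDF15 mouse 5 or pair-fed mouse 3, with 0 to 1 past the fold minimum. It gave 2 without vehicle mouse 2, vehicle mouse 3, GDF15 mouse 2, GDF15 mouse 6 or pair-fed mouse 4. The wider lists gave 0 to 4 genes for GDF15 against pair-fed, 0 to 1 for GDF15 against vehicle and 3 to 10 for the comparison of pair-fed with vehicle muscle. For GDF15 against pair-fed they gave 4 without pair-fed mouse 3, 0 without mouse 5 and 1 without mouse 6; for GDF15 against vehicle 1 without vehicle mouse 1, vehicle mouse 2 or GDF15 mouse 5, and 1 with no filter. For pair-fed against vehicle they gave 5 without vehicle mouse 1, 2 or 3, 4 without vehicle mouse 5, 3 without pair-fed mouse 5 or 6, and 5 at an adjusted p under 0.05. The cause of these shifts was not tested.

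Replicate numbers were not shown to pair the mice: deviations from the group means correlated at -0.099 to 0.067 over 14 same-numbered pairs. With the replicate number as a block, Pik3r1 was at 0.42 and -0.37 (limma adjusted p = 0.045 and 0.0515). The block lost the calls of Igf1r for GDF15 against pair-fed (-0.40, limma adjusted p = 0.104) and, for pair-fed against vehicle, of Igf1r (0.33, limma adjusted p = 0.137), Mlst8 (-0.27, limma adjusted p = 0.162) and Stxbp3 (0.27, limma adjusted p = 0.119); the wider lists gave 1 gene for GDF15 against pair-fed and 5 for pair-fed against vehicle, and over all genes 190, 38 and 520 were called in place of 257, 91 and 754. On the deposited scale, which compresses low counts, 7, 9 and 17 genes passed the fold minimum in place of 33, 36 and 97.

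Signs turned only for differences that were not called. For GDF15 against pair-fed, Insr was 0.00 with library weights, -0.08 with the depth term and -0.02 to 0.04 without single mice; Irs1 was -0.05 without the 3 slow-fibre-rich libraries; Irs2 was 0.00 with the block, -0.01 with quantile normalization and the depth term, and -0.04 to 0.03 without single mice. There Akt1 (-0.01 to 0.06), Akt2 (-0.04 to 0.00) and Stxbp3 (-0.05 to 0.03) also turned on leaving out a mouse. For GDF15 against vehicle, Aspscr1 was -0.01 without the 3 libraries and Gsk3b -0.01 with the depth term; Pik3r1 (-0.03 to 0.07), Aspscr1 (-0.01 to 0.05) and Igf1r (-0.12 to 0.00) turned on leaving out a mouse, as did Tbc1d1 for pair-fed against vehicle (-0.01 to 0.09). At this depth and number of mice the self-test called 25 of 100 genes with a change of 0.3. Those genes were drawn at random from all tested genes, with a minimum set on the simulated spread. Their rate need not hold for the members, whose coefficients of variation ran from 2.9% (Akt2, vehicle) to 28.4% (Tbc1d4, pair-fed). Small changes of the members could still be missed.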
